A study of Arabidopsis thaliana with 18 samples.

Results

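The stretch of Arabidopsis thaliana chromosome 4 from 11363351 to 11369450 (TAIR10) holds the pseudogene AT4G21360 and, behind it, the microRNA gene MIR4239 (locus AT4G07000). Its members are the 121 windows of 100 bp, placed every 50 bp, that lie wholly within these 6100 bp, out of 43887 windows in the whole table. All 121 had a methylation level in all 9 lines. Levels below are means over the 61 windows that do not overlap, unless windows are said to overlap. The stretch was chosen from measured values: its windows are methylated in the wild type and nearly all are lower by 0.2 or more in the inbred line 193. The difference between Col-wt and epiRIL 193 is therefore a description, and so are the other levels, because they were known when the stretch was chosen. No test was made.

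Aerial rosette tissue, cut 21 to 22 days after sowing in long days (16 h light, 8 h dark), was assayed by bisulfite sequencing, which reads methylated cytosines as C and the others as T. The groups were wild-type Columbia plants (Col-wt), inbred lines of the epiRIL kind numbered 92, 150, 193 and 232, and an epiHybrid for each. An epiRIL (epigenetic recombinant inbred line) carries stretches of chromosome that came through a hypomethylated ancestor, in a DNA sequence that is otherwise nearly uniform. The epiHybrids carry the numbers of the epiRILs, and the authors' differences from mid-parent are those of crosses of each epiRIL with Col-wt. Each line had 2 libraries, and the authors gave 1 level per window and line. No level here has an error between plants, and the SDs given are over windows, which are neighbours and not replicates. An epiRIL is 1 inbred line, so a value belongs to that line and not to epiRILs in general.

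Plants methylate cytosines in the contexts CG, CHG and CHH, where H is any base but G. CG and CHG methylation is copied after replication by enzymes that read the symmetric partner strand or the histone mark it carries. CHH methylation has to be set anew, partly guided by small RNAs. DDM1, a chromatin remodeller, gives the methylating enzymes access to transposons and other silent repeats, and stretches stripped in a ddm1 mutant can stay unmethylated for generations after the functional gene has been restored, or regain methylation where small RNAs direct it. A microRNA gene makes a hairpin transcript that is cut into a short RNA guiding the silencing of other transcripts. The deposited level pools the 3 contexts, so a shift in 1 of them cannot be told from a shift in another.

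The number of cytosines behind a level was high in the stretch. Its median per window was 38 in epiRIL 193 and 39 in each of the other 8 lines, against 29 to 34 over all windows. The window with the fewest was the last one, at 11369351 to 11369450, with 4 cytosines in epiRIL 193 and 15 in epiHybrid 193. Read depth is unknown.

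Methylation of the stretch differed widely between lines. It was almost gone in epiRIL 193, reduced by a smaller amount in epiRIL 92 and in epiHybrid 193, and above Col-wt in the other 5 lines. The mean level was 0.305 ± 0.0740 (SD over 61 windows) in Col-wt, and the levels of its windows ran from 0.119 through a median of 0.293 to 0.460. In epiRIL 193 the mean was 0.00909 ± 0.0144 (SD over 61 windows), with a lowest level of 0, a median of 0.00561 and a highest level of 0.107. No window of epiRIL 193 reached the lowest window of Col-wt. EpiRIL 92 had a mean of 0.177 ± 0.0626 (SD over 61 windows), from 0.0673 through 0.178 to 0.376. Its windows overlapped the Col-wt range, but window by window epiRIL 92 was below Col-wt in all 61, and in all 121 when overlapping windows were counted. A level from whole rosettes does not tell a lower level in every cell or chromosome copy from a mixture of methylated and unmethylated ones.

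EpiRIL 150 read 0.367 ± 0.0761 and epiRIL 232 read 0.366 ± 0.0747 (SD over 61 windows). EpiHybrid 150 followed with 0.361 ± 0.0874, epiHybrid 92 with 0.346 ± 0.0867 and epiHybrid 232 with 0.335 ± 0.0746 (SD over 61 windows). EpiHybrid 193 stood apart from the other epiHybrids at 0.215 ± 0.0789 (SD over 61 windows). As a share of the Col-wt mean, this left 2.98% in epiRIL 193 (1.25% with a background from weakly methylated windows subtracted), 57.9% in epiRIL 92 and 70.3% in epiHybrid 193. The same share was 109.6% in epiHybrid 232, 113.3% in epiHybrid 92, 118.1% in epiHybrid 150, 119.7% in epiRIL 232 and 120.2% in epiRIL 150.

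Ordered from the highest mean, the first neighbours read close to each other. Whether neighbours in this order differ cannot be told without an error between plants, and the SD over windows is not one. EpiRIL 150 was above epiRIL 232 in 30 windows and below it in 31. EpiRIL 232 was above epiHybrid 150 in 34 windows of 61, epiHybrid 150 above epiHybrid 92 in 39, and epiHybrid 92 above epiHybrid 232 in 39, and each of these mean differences was smaller than its SD over windows. EpiHybrid 232 exceeded Col-wt by 0.0293, again under the SD over windows of 0.0435, with 44 windows higher and 17 lower. The steps below Col-wt were larger. Col-wt exceeded epiHybrid 193 by 0.0907 ± 0.0592 (SD over windows), with 59 of 61 windows higher. EpiHybrid 193 exceeded epiRIL 92 by 0.0378 ± 0.0604 (SD over windows), in 45 of 61 windows, a difference that was also under its SD. EpiRIL 92 exceeded epiRIL 193 in all 61 windows, by 0.168 ± 0.0626 (SD over windows).

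**Figure D1:**
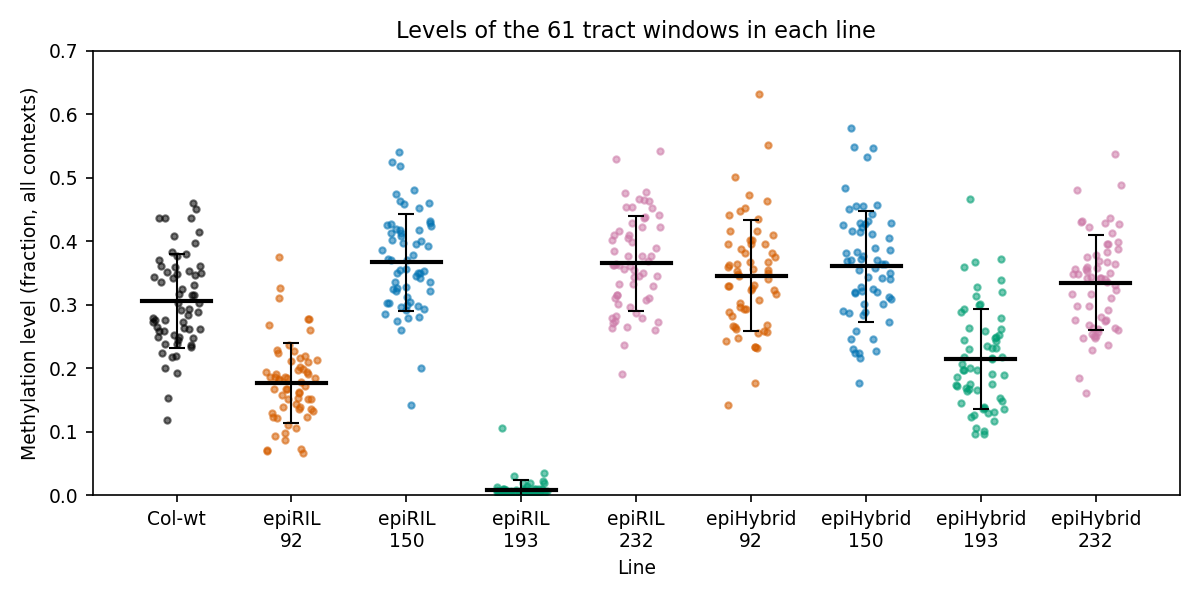
Methylation level (fraction from 0 to 1, all contexts; vertical axis) of the 61 windows that do not overlap, as points, for each of the 9 lines on the horizontal axis; the thick bar is the mean and the thin bar its SD over windows. EpiRIL 193 lies at a mean of 0.00909, epiRIL 92 at 0.177 and epiHybrid 193 at 0.215, with the other 6 lines between 0.305 and 0.367.

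By a limit of 0.2 below Col-wt, 57 of the 61 windows were lower in epiRIL 193, the contrast that chose the stretch, where 2.62% of all windows are. In epiRIL 92, 8 windows passed this limit, against 0.525% of all windows, and in epiHybrid 193, 3 windows, against 0.653%. Such a difference needs a methylated wild type. Of windows at 0.2 or more in Col-wt outside the stretch, 7.52% were lower in epiRIL 92, 36.2% in epiRIL 193 and 9.89% in epiHybrid 193. In epiRIL 150 (2.28% of all windows), epiRIL 232 (3.33%) and epiHybrids 92 (0.265%), 150 (0.459%) and 232 (1.13%), no window of the stretch was lower by the limit. Among methylated windows outside, 35.4% were lower in epiRIL 150, 51.7% in epiRIL 232, and 4.11, 7.12 and 17.5% in epiHybrids 92, 150 and 232. In none of the 8 lines was a window of the stretch higher than Col-wt by 0.2. Of all windows, 0.209, 0.214, 0.163 and 0.194% are so in epiRILs 92, 150, 193 and 232, and 0.163, 0.148, 0.224 and 0.122% in the epiHybrids of the same numbers, so 0 of 61 is near the background.

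The 4 windows that did not pass this limit in epiRIL 193 had low levels in Col-wt. They start at 11363351, 11364551, 11364751 and 11365251 and read 0.192, 0.153, 0.119 and 0.20 in Col-wt, against 0.0103, 0.00512, 0.00295 and 0.00137 in epiRIL 193. The first 3 were also the windows under 0.2 in Col-wt, which left 58 of 61 windows called methylated there, against 6.74% of all windows.

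In the 5 lines with a mean above Col-wt, the windows that read above Col-wt were spread along the stretch, except in epiHybrid 232. That line averaged 98.9% of Col-wt between 5000 and 5500 bp from the start and 92.8% behind that. EpiRIL 150 was above Col-wt in 57 of 61 windows and epiRIL 232 in 55, where 35.7% and 33.6% of all windows are. EpiHybrid 92 was above it in 51 (35.7% of all windows), epiHybrid 150 in 50 (37% of all windows) and epiHybrid 232 in 44 (35.1% of all windows). Col-wt was below these 5 lines at once in 38 windows, against 7.36% of all windows and 9.41% of the methylated windows outside the stretch. EpiRILs 92 and 193 were above Col-wt in none (38.9 and 35.6% of all windows), and epiHybrid 193 in 2 (34.9% of all windows). Among methylated windows outside the stretch, the share above Col-wt was 50.7, 31.4, 32.1 and 18.9% in epiRILs 92, 150, 193 and 232. In the epiHybrids of the same numbers it was 58.7, 39.8, 37.3 and 22.6%, so the stretch with 83.6% in epiHybrid 92 stood closer to this background than to that of all windows. Other methylated pseudogenes that a line had kept, at 75% of Col-wt or more, read above it in most cases outside epiRIL 232. In epiRIL 150 this held for 8 of 9 such pseudogenes, with a median of 110.2% of Col-wt, and in epiRIL 232 for 2 of 4, with a median of 105.4%. In epiRIL 92 it held for 15 of 20 (median 110.3%) and in epiRIL 193 for 8 of 9 (median 111.3%). In weakly methylated windows of the table Col-wt was the highest line instead, at 0.00790 against 0.00467 to 0.00566. What sets Col-wt apart in these windows was not tested.

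Along the stretch the wild-type level was uneven, and most lines shared its shape. In bins of 500 bp the Col-wt mean was lowest, 0.22, between 1000 and 1500 bp from the start and highest, 0.382, between 4500 and 5000 bp. The single lowest window was the one at 11364751 to 11364850, within AT4G21360, in Col-wt, epiRIL 150, epiRIL 232, epiHybrid 92 and epiHybrid 150. It read 0.119 in Col-wt, 0.142 in epiRIL 150, 0.192 in epiRIL 232, 0.142 in epiHybrid 92 and 0.177 in epiHybrid 150. The highest window of Col-wt, at 11368251 to 11368350 just behind AT4G21360, was also the highest of epiRILs 92, 150 and 232 and of epiHybrid 150. Col-wt read 0.460 there, epiRILs 92, 150 and 232 read 0.376, 0.541 and 0.542, and epiHybrid 150 read 0.578.

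**Figure D2:**
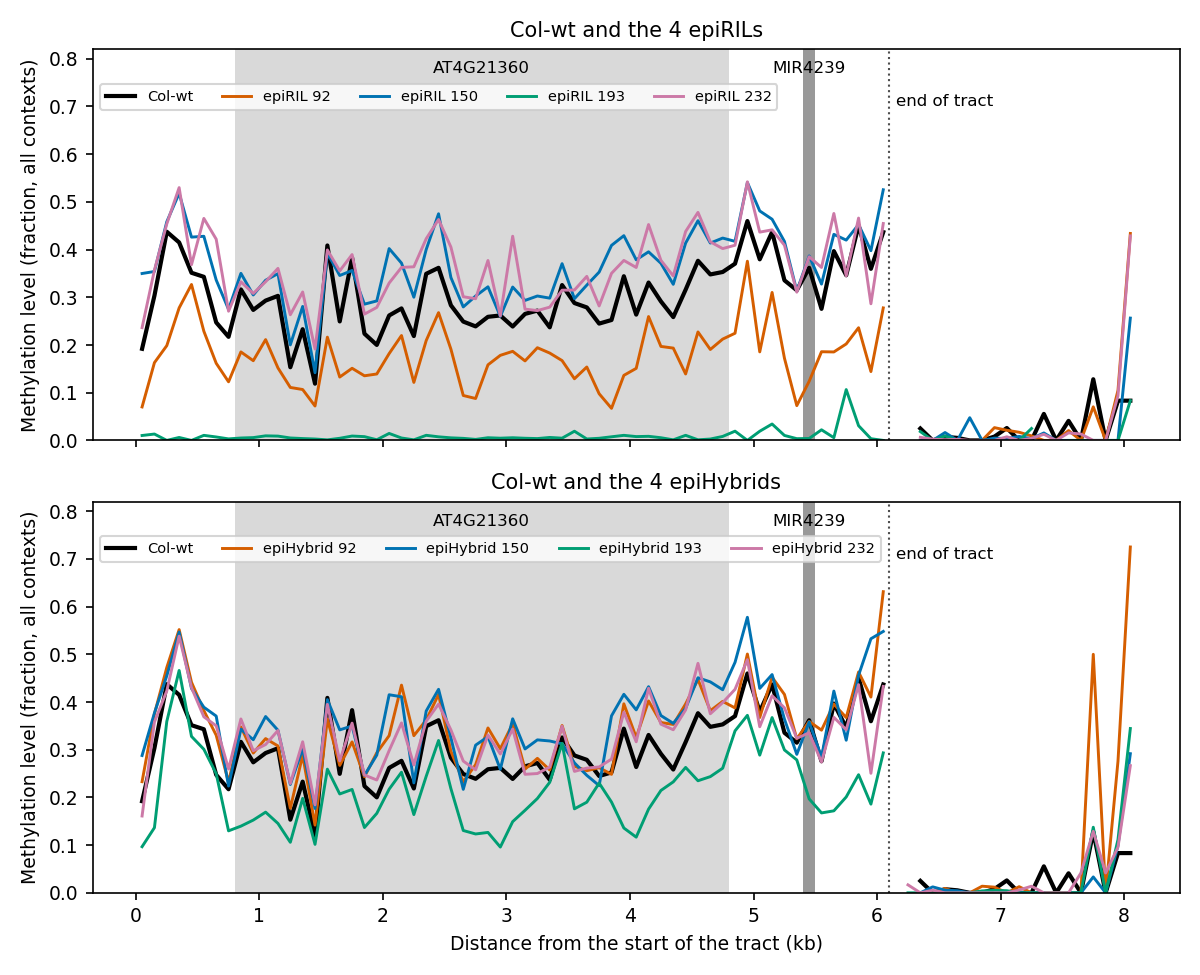
Methylation level (fraction, all contexts; vertical axis) against the distance from the start of the stretch in kb (horizontal axis), in windows of 100 bp that do not overlap, for Col-wt with the 4 epiRILs (top) and Col-wt with the 4 epiHybrids (bottom); grey marks the windows over AT4G21360 and over MIR4239, the dotted line the end of the stretch, and gaps are windows with no cytosine in that line. EpiRIL 193 stays at or under 0.107 along the whole stretch. All lines are near 0 in the first flank windows that have a level. Levels return in some lines at the far end of the flank.

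Across the 61 windows, the profiles of Col-wt, epiRILs 150 and 232 and epiHybrids 92, 150 and 232 correlated with each other at Pearson r from 0.771 to 0.884 (15 pairs). EpiRIL 92 correlated with these lines and with epiHybrid 193 at r from 0.658 to 0.766, so its lower level kept much of the shape. EpiRIL 193 correlated with the other lines at r from 0.0168 to 0.181. These values describe windows that share their sequence, base composition and, within a line, their libraries. The level of a window was also set against the largest number of cytosines that any line had in it. This gave r between -0.119 and 0.134 in 8 lines and of 0.257 in epiRIL 193. A line's own number of cytosines, which can be lower, was not used for this.

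The pseudogene AT4G21360 itself filled 40 windows, from 11364151 to 11368150. An annotated pseudogene is a gene-like sequence without a working protein product, and many in Arabidopsis are remains of transposons. Which kind AT4G21360 is was not examined here. Over the pseudogene Col-wt averaged 0.280. EpiRILs 92, 150, 193 and 232 averaged 0.164, 0.342, 0.00609 and 0.347. The epiHybrids 92, 150, 193 and 232 read 0.317, 0.335, 0.191 and 0.318. The loss in epiRIL 193 left 2.17% of the Col-wt level over the pseudogene, and epiRIL 92 held 58.4%.

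The methylation was not limited to the pseudogene. The 8 windows before it, from 11363351 to 11364150, read 0.313 in Col-wt, 0.194 in epiRIL 92, 0.00636 in epiRIL 193 and 0.258 in epiHybrid 193. The 6 windows between AT4G21360 and MIR4239, from 11368151 to 11368750, were the most methylated segment of Col-wt with 0.383, and read 0.224 in epiRIL 92 and 0.0145 in epiRIL 193. The 6 windows behind MIR4239, from 11368851 to 11369450, read 0.378 in Col-wt, 0.205 in epiRIL 92 and 0.0282 in epiRIL 193. EpiRILs 150 and 232 read above Col-wt in each of these 3 segments, at 112.8 to 125.5% and 105.5 to 123.8% of its level.

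MIR4239 is short, and 1 window that does not overlap another, at 11368751 to 11368850, has its midpoint in the gene. It rested on 40 cytosines in every line. Col-wt read 0.362 there, epiRIL 150 read 0.387 and epiRIL 232 read 0.385, with 0.359, 0.358 and 0.335 in epiHybrids 92, 150 and 232. EpiRIL 193 read 0.00406, epiRIL 92 read 0.124 and epiHybrid 193 read 0.197. The window over the microRNA gene was thus methylated at the level of its surroundings in Col-wt and nearly unmethylated in epiRIL 193. It does not lie wholly within the gene, so its level includes neighbouring sequence. The overlapping window at 11368801 to 11368900, on 35 cytosines, gave 0.321 in Col-wt, 0.125 in epiRIL 92, 0.00940 in epiRIL 193 and 0.177 in epiHybrid 193.

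The share of the wild-type level that epiRIL 92 held varied along the stretch, and its lowest window lay next to MIR4239. The window over the gene stood at 34.2% of Col-wt, and the window before it, at 11368651 to 11368750, read 0.0730 against 0.315 in Col-wt, which is 23.2% and the lowest share in the stretch. In bins of 500 bp, epiRIL 92 ranged from 41.5% of Col-wt between 3500 and 4000 bp to 68.2% between 2000 and 2500 bp. Of the 8 windows of epiRIL 92 that passed the limit of 0.2, 5 started at 11368651 or later, at 11368651, 11368751, 11368951, 11369151 and 11369251. The other 3 started at 11363551, 11365051 and 11367251. No window of epiRIL 92 was as low as the epiRIL 193 level in the same window.

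In epiRIL 193 the windows with the most methylation lay at the far end. Of its 61 windows, 57 were under 0.02. The 4 at 0.02 or more started at 11368451, 11368851, 11369051 and 11369151 and read 0.0344, 0.0223, 0.107 and 0.0309. The window at 11369051 to 11369150 held 30.8% of its Col-wt level of 0.346 and was backed by 51 cytosines in each line. The overlapping windows on either side, starting at 11369001 and 11369101, read 0.0834 and 0.0243 in epiRIL 193. By bins, epiRIL 193 held between 1.64% and 3.92% of Col-wt over the first 5500 bp and 7.46% behind it.

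The question behind the hybrids is whether methylation in the offspring is the mean of its parents. In lines 92 and 193, whose epiRILs had reduced levels, the epiHybrids read above that mean. EpiHybrid 92 read 0.346 with a mid-parent value of 0.241, a difference of 0.105 ± 0.0440 (SD over 61 windows). It was above the mid-parent value in all 61 windows, from 0.0397 to 0.274 above, and in all 12 bins of 500 bp. EpiHybrid 193 read 0.215 with a mid-parent value of 0.157, a difference of 0.0575 ± 0.0599 (SD over 61 windows), and was above in 51 windows. With the mean of Col-wt and epiRILs 150 and 232 as the wild-type level, this difference was 0.0371. In lines 150 and 232, whose epiRILs read above Col-wt, the differences were 0.0245 ± 0.0426 and -0.00085 ± 0.0316 (SD over 61 windows), with 45 and 32 windows above the mid-parent value.

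By a limit of 0.1 above the mid-parent value, 33 windows passed in epiHybrid 92, where 0.984% of all windows and 7.2% of the methylated windows outside the stretch do. In epiHybrid 193 it was 16 windows, against 1.09% of all windows and 9.1% of the methylated ones outside. In epiHybrid 150 it was 1 window, or 1.64%, against 1.08% of all windows and 9.97% of the methylated ones outside. In epiHybrid 232 it was 0, against 0.811 and 6.57%. No window was below the mid-parent value by 0.1 in any of the 4 epiHybrids. Of all windows, 0.403, 0.393, 0.398 and 0.469% are so in epiHybrids 92, 150, 193 and 232. The mid-parent values of the 4 epiHybrids share the Col-wt column, so their differences are not independent, and a Col-wt level that reads low raises each of them.

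EpiHybrid 92 did not only pass the mean of its parents. It read above both of them in 51 of 61 windows and below both in none. Above both were 24.3% of all windows and 35.4% of the methylated windows outside the stretch, and below both 29.9 and 21.8%. EpiRIL 92 was below Col-wt in all 61 windows, so these 51 are the windows above Col-wt already counted. Of the methylated windows outside, 58.7% were above Col-wt in epiHybrid 92. EpiHybrid 150 was above both parents in 28 windows (25.6% of all windows, 25.2% of the methylated ones outside) and below both in 10 (26.6 and 13.8%). For epiHybrid 232 the count above both was 11, or 18% of the stretch, against 24.4% of all windows and 14.3% of the methylated ones outside. The count below both was 17, or 27.9%, against 27.2 and 11.1%. On a scale where the Col-wt level is 0 and the epiRIL level is 1, the mean of epiHybrid 92 stood at -0.32, beyond the Col-wt end. The bins ranged from -0.86 to -0.02, so every bin lay beyond it. With the mean of Col-wt and epiRILs 150 and 232 (0.346) in place of Col-wt, a choice for this scale made after seeing the data, the position was 0.000164, level with that mean. Over MIR4239 epiHybrid 92 read 0.359, against 0.362 in Col-wt and 0.124 in epiRIL 92, and there it did not exceed both parents.

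EpiHybrid 193 lay between its parents in 59 of 61 windows. It was above both in 2 (23.2% of all windows, 22.8% of the methylated ones outside) and below both in none (28.3 and 15.2%). On the same scale its mean stood at 0.31, nearer to Col-wt than to epiRIL 193. Its position varied along the stretch. Between 0 and 500 bp the epiHybrid read 0.277 and the mid-parent value was 0.173, a position of 0.19. Between 2500 and 3000 bp the hybrid read 0.139 and the mid-parent value was 0.131, a position of 0.47. In the last 600 bp they were 0.211 and 0.203, a position of 0.48. Every bin lay between these positions, on the Col-wt side of the mid-parent value and below Col-wt.

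The windows of epiHybrid 193 above Col-wt were both before the pseudogene. At 11363651 to 11363750 it read 0.466, against 0.415 in Col-wt and 0.00618 in epiRIL 193, and at 11363951 to 11364050 it read 0.25, against 0.247 in Col-wt. In the first of these windows epiRILs 150 and 232 read 0.518 and 0.530 and epiHybrids 92, 150 and 232 read 0.552, 0.547 and 0.538, all above epiHybrid 193. Its lowest window, at 11366251 to 11366350 within AT4G21360, read 0.0959, against 0.262 in Col-wt. The 3 windows lower than Col-wt by 0.2 started at 11367251, 11368951 and 11369151 and read 0.136, 0.172 and 0.248, against 0.344, 0.397 and 0.450 in Col-wt.

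By segment, epiHybrid 193 held 82.5% of Col-wt before AT4G21360, 68.0% over it and 84.7% between it and MIR4239. Over MIR4239 it held 54.4% and behind it 55.9%. The mid-parent value over MIR4239 was 0.183 and the hybrid read 0.197. In its neighbouring segment before the gene the mid-parent value was 0.199 and the hybrid read 0.324.

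**Figure D3:**
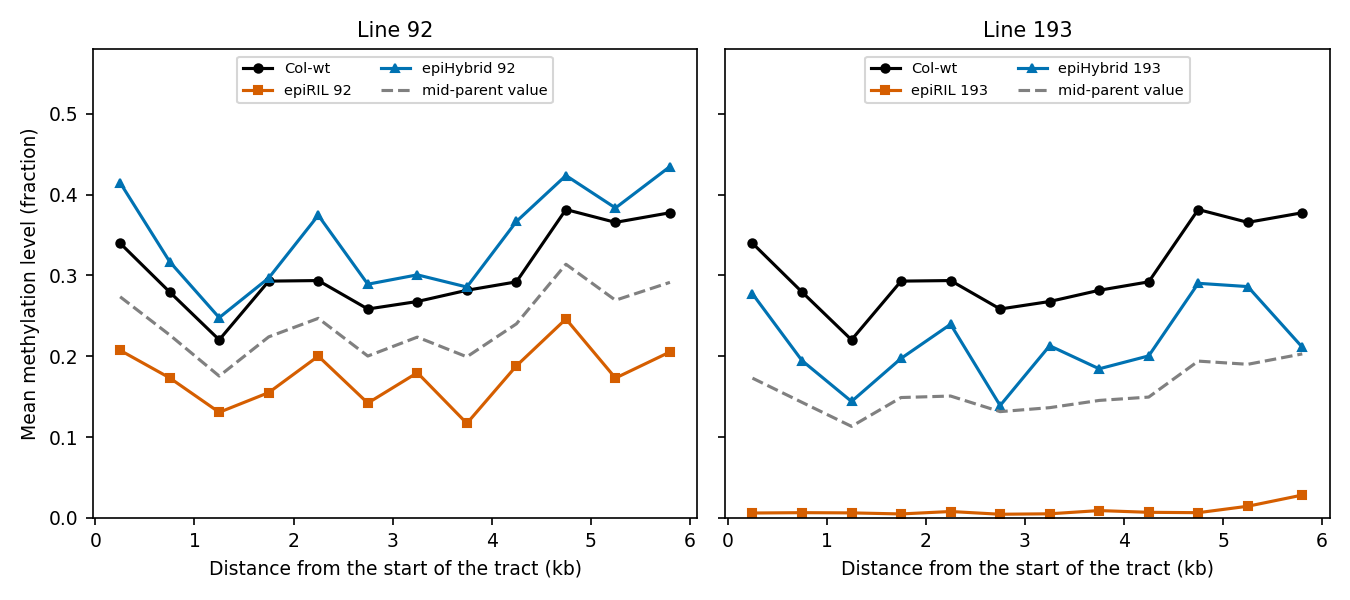
Mean methylation level (fraction; vertical axis) in bins of 500 bp against the distance from the start of the stretch in kb (horizontal axis), for line 92 (left) and line 193 (right), each with Col-wt, the epiRIL, the epiHybrid and the dashed mid-parent value; the last bin holds 6 windows and the others 5. EpiHybrid 92 lies above Col-wt in all 12 bins, and epiHybrid 193 lies between Col-wt and the mid-parent value, closest to the latter at 2500 to 3000 bp and in the last bin.

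Levels fell behind the stretch in all lines but epiRIL 193, across a gap with no window that had a level in all lines. Where in this gap they fell cannot be told. The last window of the stretch, at 11369351 to 11369450, read 0.437 in Col-wt. EpiRILs 92, 150, 193 and 232 read 0.278, 0.525, 0 and 0.455 there. The epiHybrids 92, 150, 193 and 232 read 0.631, 0.548, 0.293 and 0.433 there, on few cytosines, as given above. In the next 100 bp no line had a cytosine with a level, and in the window after that 2 epiHybrids had one. The first flank window with a level in all lines, at 11369651 to 11369750, read 0.025 in Col-wt and between 0 and 0.0185 in the other 8 lines. The table starts with the stretch, so the DNA before it was not analysed here.

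Behind the stretch, 20 windows that do not overlap cover the next 2000 bp, and 12 of them had a level in all lines. Over all 20, including windows with no cytosine in a line, the median number of cytosines was 7.5 to 21 by line, well under that of the stretch. Up to 11371050, the 8 windows with a level in all lines averaged 0.00986 in Col-wt and between 0 and 0.00838 in the other lines. Counting also windows that lacked a level in some line, the highest was 0.0556, in Col-wt. The microRNA gene MIR1887 lies in this part, and its 3 overlapping windows read between 0 and 0.0268 in the lines that had a level there. The 2 microRNA genes, MIR4239 and MIR1887, thus lie on either side of the end of the methylated stretch.

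At the far end of the flank methylation returned in some lines, on few cytosines. The window at 11371351 to 11371450 read 0.0833 in Col-wt and in epiRIL 193, each on 4 cytosines. It read 0.434 in epiRIL 92 on 20 cytosines, 0.256 in epiRIL 150 on 13 and 0.429 in epiRIL 232 on 21. The epiHybrids 92, 150, 193 and 232 read 0.725, 0.292, 0.344 and 0.267, on 14, 4, 12 and 4 cytosines. EpiRIL 92 did not share the order of lines seen in the stretch here, since it read above epiRIL 150. In the window at 11371051 to 11371150, Col-wt read 0.128 on 13 cytosines and epiRIL 92 read 0.0704 on 18. EpiRILs 150, 193 and 232 read 0 there, on 3, 9 and 10 cytosines. The epiHybrids 150, 193 and 232 read 0.0333, 0.1375 and 0.129, on 10, 8 and 11 cytosines. The value of 0.5 in epiHybrid 92 in that window rested on 2 cytosines.

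Against the rest of the deposited table, the stretch stood at the low end for epiRIL 193 and the high end for epiRILs 150 and 232. Its place in epiRIL 193 follows from the choice of the stretch by low levels in that line. In windows at 0.2 or more in Col-wt, the 58 windows of the stretch stood at 2.95% of Col-wt in epiRIL 193, against 68.7% in the 182 other such windows of the chromosome 4 interval (11363351 to 11824750). EpiRIL 92 stood at 58.0% in the stretch and at 64.3% in the rest of that interval, but at 92.8% in the 1264 windows of all 3 intervals outside the stretch. EpiRILs 150 and 232 stood at 119.5 and 119.0% in the stretch and at 99.8 and 91.9% in the rest of the interval. EpiHybrid 193 stood at 70.4 and 86.9%, and epiHybrid 92 at 113.2 and 93.8%. In epiRIL 193 the 68.7% is a mean over unlike places. Of the pseudogenes in the rest of the interval, AT4G22415 stood at 7.86% and AT4G22040 at 109.4%. The differences between places were not tested.

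**Figure D4:**
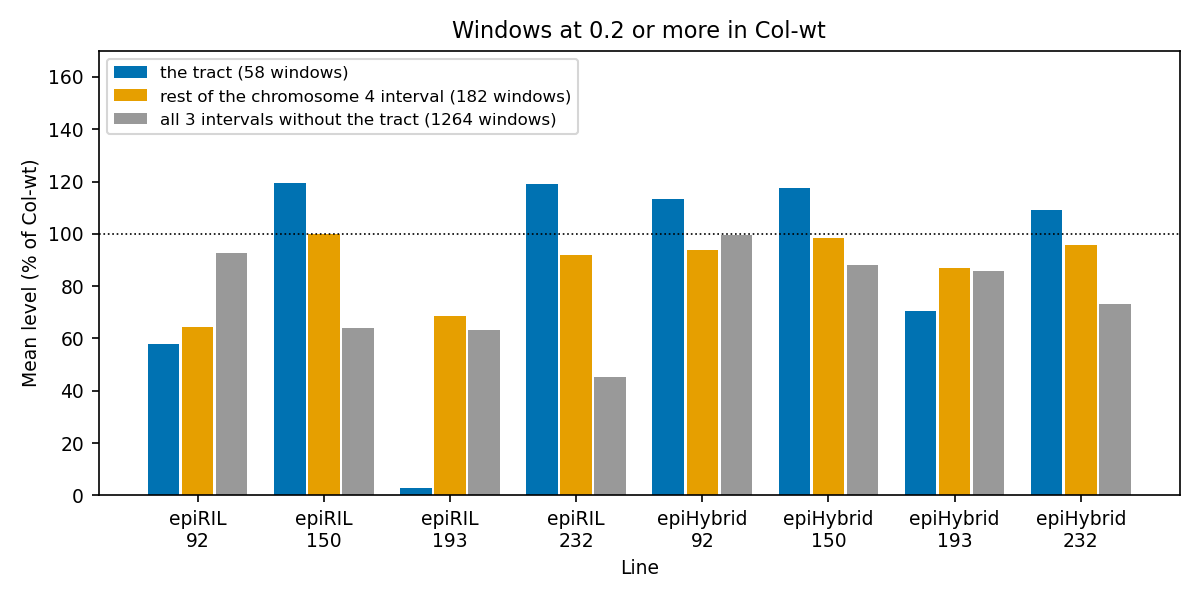
Mean methylation level as a percent of Col-wt (vertical axis, from 0) in windows at 0.2 or more in Col-wt, for the 8 lines on the horizontal axis, in the stretch (58 windows), the rest of the chromosome 4 interval (182 windows) and all 3 intervals without the stretch (1264 windows); the dotted line is the Col-wt level. EpiRIL 193, whose loss chose the stretch, stands at 2.95% in the stretch and at 68.7% in the rest of the interval.

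Other annotated genes of the same classes were set beside the members. Of 52 other pseudogenes in the 3 intervals, 22 had a mean of at least 0.2 in Col-wt. In epiRIL 193, 13 of these 22 stood under 25% of Col-wt and 9 at 75% or more, and AT4G21360 with 2.17% belongs with the former. In epiRIL 92, 20 of the 22 stood at 75% or more, and the remaining 2 were AT4G22040 at 53.7% and AT4G22415 at 58.8%. They are the other 2 methylated pseudogenes of the chromosome 4 interval, and AT4G21360 stood at 58.4%. In epiRIL 232, 17 of the 22 were under 25% and 4 at 75% or more, as AT4G21360 was. In epiRIL 150, 10 were under 25% and 9 at 75% or more.

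Of 7 other microRNA genes in the intervals, 6 had a window with a level in all lines, and none of the 6 reached 0.2 in Col-wt. The highest was MIR867, also on chromosome 4, with 0.0179. Of all windows, 6.74% reach 0.2 in Col-wt, so 0 of 6 is near the background. MIR4239 was the methylated one among the microRNA genes measured, and it lies in a stretch chosen for its methylation. Each of these genes rested on 1 window, except MIR169g with 4.

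The genes whose levels over the 9 lines were most like those of the stretch were sought among 33 others with at least 5 windows and a Col-wt mean of at least 0.2. AT4G22415, a pseudogene near the other end of the same interval, had a Pearson r of 0.996 over the 9 lines. Its level was 0.305 in Col-wt, and epiRILs 92, 150, 193 and 232 read 0.18, 0.336, 0.0240 and 0.346. Its epiHybrids 92, 150, 193 and 232 read 0.328, 0.339, 0.199 and 0.337. The next was the protein-coding gene AT4G22410 (r = 0.965), whose 65 windows include all 44 of AT4G22415, so the pair is not separate. The third was AT3G09465, a long non-coding RNA gene on chromosome 3 (r = 0.767), with levels from 0.249 in epiRIL 193 to 0.320 in epiRIL 150, a much narrower range. The pseudogene AT4G22040, between the stretch and AT4G22415, resembled them in epiRIL 92 but held 109.4% of Col-wt in epiRIL 193 (r = 0.185). These correlations describe 9 lines that include parents and their offspring.

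**Figure D5:**
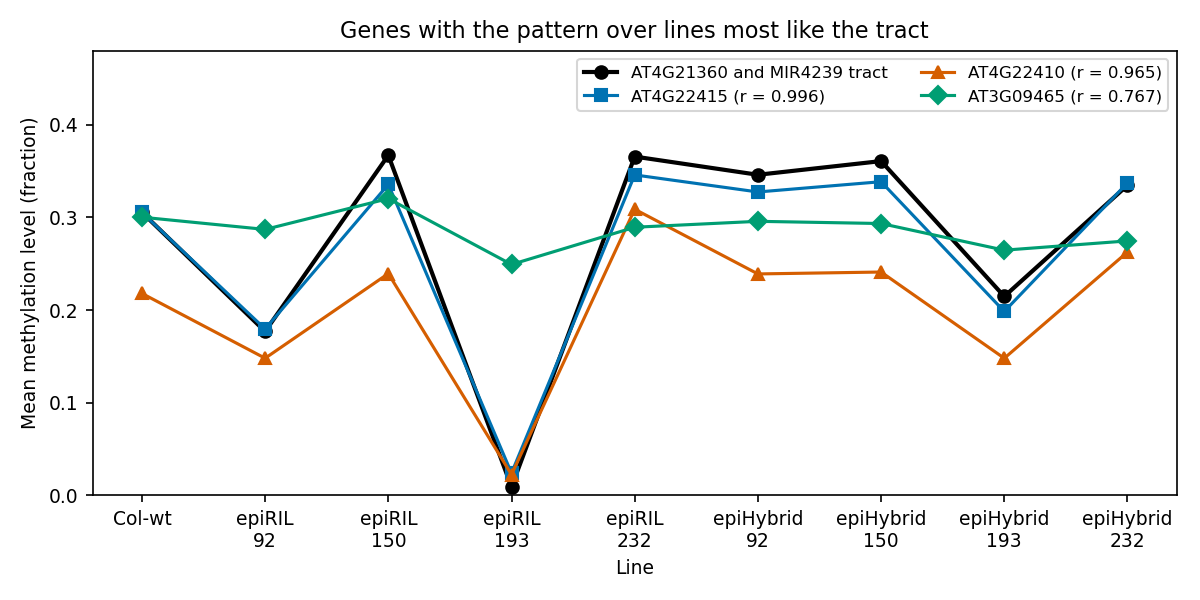
Mean methylation level (fraction; vertical axis) of the stretch and of the 3 genes most like it, in each of the 9 lines on the horizontal axis, with Pearson r over the lines in the legend; lines between points only guide the eye. AT4G22415 follows the stretch in every line, and AT3G09465 varies only between 0.249 and 0.320.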

How the data were processed

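The 18 bisulfite libraries came from 9 lines with 2 libraries each, and about 5000 ng of DNA per sample was submitted, per the labels' protocols. Tools named in the submitters' processing notes are Bowtie2, BS-Seeker2 and cutadapt, without versions, and the build is TAIR10. The authors deposited methylation levels as fractions from 0 to 1, with all cytosine contexts in 1 value, and the count of cytosines behind each level. A level was missing exactly where that count was 0. The authors had merged the libraries of a line, by a step not given in the sources used here. Whether they came from separate plants is not stated in the labels.

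Windows were selected by position, and every second window from the first of each interval was used (19614 with a level in all 9 lines). The summaries were checked on simulated data. Mid-parent values were computed from the Col-wt and epiRIL levels, and the differences from them matched those the authors deposited within 5.6e-16. Genes were assigned to windows by the window's midpoint, from the RefSeq annotation of TAIR10.1, whose build name differs from that of the table, so no gene coordinates are given. Named genes were the members, the gene in the flank and the 3 methylated genes outside with the highest Pearson correlation over the 9 lines. The limits were 0.2 against Col-wt and 0.1 against the mid-parent value. Weakly methylated windows averaged less than 0.02 over the lines. A gene is grouped as under 25% or at least 75% of its Col-wt level. The members, limits and lists were chosen with earlier results of these data known. Single windows and the point that splits the flank were picked with their values known, and so were AT4G22040, MIR867 and the kept pseudogenes. Python 3.11.15, pandas 2.3.3 and NumPy 2.4.6 were used.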

Additional observations from a re-analysis of the deposited data

Results flagged for a closer look

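The difference of the epiRIL from Col-wt over the stretch went opposite ways in different lines. It was -0.129 in epiRIL 92 and -0.296 in epiRIL 193, but 0.0617 in epiRIL 150 and 0.0603 in epiRIL 232. Each line gives 1 value, and the difference between lines was not tested. Among the 4 epiHybrids, epiHybrid 193 lay far below the others over AT4G21360 (0.191) and over MIR4239 (0.197), and epiHybrid 92 lay far above the others in the flank (0.127), where 2 of its windows, with 2 and 14 cytosines, read 0.5 and 0.725. These 3 came from 14 groups of 4 lines that were screened for a single distant line. By chance the screen marks about 1 group in 20, but the stretch was chosen for its loss in epiRIL 193. The other levels were known then, so the count of 3 cannot be set against that rate. The 14 groups share windows and lines.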

How the results depend on the processing

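Of 258 recomputed values, 228 moved by less than 0.02 in level, 10 percentage points in the share of Col-wt, 0.1 in position or 1.5 times in a share of windows. These limits stand in for a replicate spread, which the pooled columns do not give. With the mean of Col-wt and epiRILs 150 and 232 (0.346) as the wild-type level, epiRILs 150 and 232 stood at 106.1 and 105.7%, epiHybrids 92, 150 and 232 at 99.99, 104.3 and 96.7%, and epiHybrids 92 and 193 exceeded the mid-parent value by 0.0846 and 0.0371. The position of epiHybrid 92 changed from -0.32 to 0.000164. The difference of epiHybrid 232 from the mid-parent value changed sign when windows were weighted by cytosines (0.00138, against -0.00085). Requiring 10 cytosines in all lines left 59 windows and changed none of these values beyond the limits, and neither did subtracting a background per line. For epiRIL 193, whose level is near 0, these limits are wide: that subtraction took its mean from 0.00909 to 0.00371 and its share of Col-wt from 2.98 to 1.25%. Shares of windows depended on the limit. Lower than Col-wt by 0.15 were 32.8% of windows in epiRIL 92 and 18.0% in epiHybrid 193, and by 0.3 they were 0% in both and 44.3% in epiRIL 193 (13.1, 4.92 and 93.4% at 0.2). Higher by 0.15 were 3.28% in each of epiRILs 150 and 232 and epiHybrids 92 and 150. Above the mid-parent value by 0.05 were 88.5, 26.2, 52.5 and 4.92% in epiHybrids 92, 150, 193 and 232, below it by 0.05 were 4.92 and 6.56% in epiHybrids 150 and 232, and above it by 0.15 were 14.8 and 3.28% in epiHybrids 92 and 193. With all overlapping windows, 0.826% were higher than Col-wt by 0.2 in epiHybrid 92 and 2.48% above the mid-parent value in epiHybrid 150, and with the other set of windows that do not overlap these were 1.67 and 3.33%. No window of that kind lies wholly within MIR4239, so its level was not recomputed that way. No paired analysis was possible because each line has 1 pooled column, and libraries could not be left out for the same reason. Read depth is unknown, and the number of cytosines limits the flank most.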
